A study of Caenorhabditis elegans with 9 samples.

Results

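The combined list of EGL-5 binding regions held 614 peaks on chromosome II, taken as every peak whose chromosome field reads II, of 4688 peaks on all 6 chromosomes. The replicate 1 list held 323 peaks there of 2420, and the replicate 2 list 193 of 1345. A binding region here is a called peak, and whether EGL-5 binds in each of them was not tested. Every library came from third-stage (L3) hermaphrodite larvae of strain OP54, grown at 20 degrees. Their genotype is unc-119(ed3) III with the transgene wgIs54, which carries unc-119(+) and egl-5 fused to the tags TY1, EGFP and 3xFLAG. The transgene was introduced by bombardment, and the labels name no change in the worm's own egl-5 gene. Chromatin was collected from whole larvae with goat antibodies against GFP. The labels list 2 ChIP libraries for each of 2 replicates, and 5 libraries of input, the total DNA of the lysate, all of replicate 2. No library of an untagged strain is listed. No label states that the 2 replicates are separate cultures, so differences between them may be technical in part.

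EGL-5 is the C. elegans Hox transcription factor related to fly Abdominal-B. It binds DNA through a homeodomain and sets the identity of cells in the worm's tail. It is named for the egg-laying defect of its mutants and acts in posterior neurons, muscle, epidermis and the male tail. In ChIP-seq of whole larvae all tissues are pooled, so binding in a few tail cells is diluted by chromatin of cells without the protein. C. elegans autosomes have a gene-rich centre with little recombination, flanked by arms that hold more repeats and recombine more.

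Regions are described here by all 3 lists. The value of a peak is the q-value given by the authors' caller, an estimate of the false discovery rate at which it is called. A lower q can come from more reads as well as from more binding. The lists give no read numbers, so the depth behind them is unknown. Positions are on the WormBase WS190 build. The span of chromosome II ran from base 1272 to base 15258992, the first and last base of any peak there, or 15.3 Mb. Peaks were shared between lists where at least 1 bp overlapped. No gene annotation of WS190 was used, so regions are named by their coordinates and no gene is assigned to them.

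The peaks of chromosome II formed a broad hill along the chromosome rather than an even cover. In the 15 full bins of 1 Mb, counted from base 1, the combined list held between 14 and 76 peaks, with a median of 38 and a mean of 40.1 ± 20.0 (SD over bins). The bin from 0 to 1 Mb held 28 peaks. The next 3 bins held 20, 14 and 16, which made the stretch from 1 to 4 Mb the emptiest of the chromosome, with 16.7 peaks per Mb. Counts then climbed to 38 between 4 and 5 Mb and to 56, 69, 76 and 62 in the 4 bins from 5 to 9 Mb. Those 4 bins held 263 of the 614 peaks (42.8%), or 65.8 per Mb. The bins from 9 to 11 Mb held 44 each, and a second high bin followed from 11 to 12 Mb with 57 peaks. From 12 to 15 Mb the counts were 25, 24 and 28. The last 0.259 Mb held 13, or 50.2 per Mb, in a short stretch that by definition ends on a peak. These stretches were picked after their counts were seen and serve as a description.

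Each replicate list drew the same outline with fewer peaks. In replicate 1 the full bins ran from 7 to 41 peaks, and in replicate 2 from 2 to 23. The stretch from 1 to 4 Mb held 26 peaks of replicate 1 (8.05% of its chromosome II peaks) and 9 of replicate 2 (4.66%). The stretch from 5 to 9 Mb held 146 peaks of replicate 1 (45.2%) and 85 of replicate 2 (44.0%). The high bin from 11 to 12 Mb held 27 peaks in replicate 1 and 21 in replicate 2. The bins from 9 to 11 Mb before it held 26 and 21 in replicate 1, and 14 and 16 in replicate 2. It therefore stood out less in replicate 1. The fullest bin differed, from 6 to 7 Mb in replicate 1 and from 5 to 6 Mb in replicate 2. Over the 15 bins Pearson's r of the replicate counts was 0.91 and Spearman's rho 0.94. The points share a genome and may share input libraries, so these values describe the likeness of the outlines and carry no p.

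**Figure D1:**
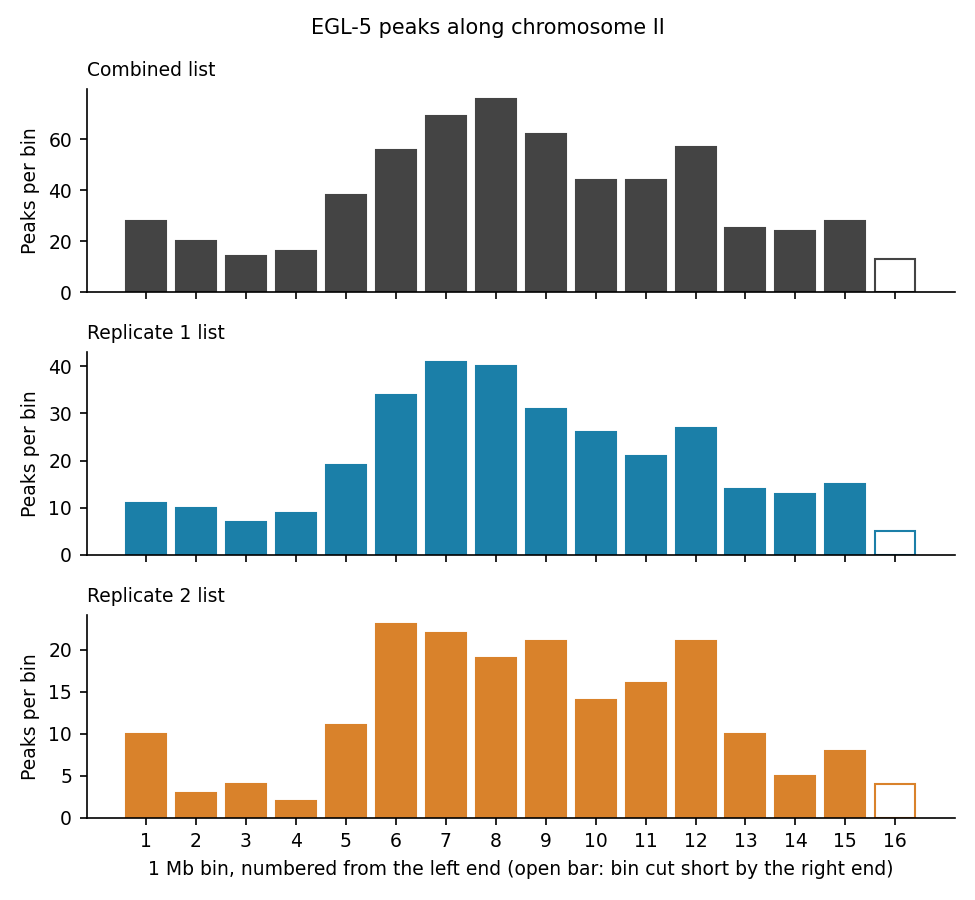
Peaks per 1 Mb bin along chromosome II in the combined, replicate 1 and replicate 2 lists, with bins numbered from the left end and a separate vertical scale for each list. Bins 2 to 4 are low and bins 6 to 9 high in every list, and bin 12 forms a second high point with 57, 27 and 21 peaks. In replicate 1 bin 10 is close to it, with 26.

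To compare arms and centre, the span was divided into a left arm, a centre and a right arm of 5.09 Mb each. The centre held 306 of 614 combined peaks (49.8%, 95% Wilson interval 45.9 to 53.8), the right arm 186 (30.3%) and the left arm 122 (19.9%). These correspond to 60.2 peaks per Mb in the centre, 36.6 in the right arm and 24.0 in the left arm. The centre held 1.50 times the number its span predicts (exact 95% interval 1.37 to 1.62, two-sided exact binomial test, adjusted p = 4.3e-16 over 9 tests). Replicate 1 gave 1.55 (1.38 to 1.72, exact adjusted p = 6.39e-11), from 167 of 323 peaks. Replicate 2 gave 1.54 (1.32 to 1.76, exact adjusted p = 1.02e-06), from 99 of 193. The unit of these tests is the peak, and peaks lie in clusters, so the intervals can be too narrow and the p-values too small. The shape of the chromosome, not variation between worms, is what they describe.

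The arms were unequal, with fewer peaks in the left. Of the combined peaks in the arms, 122 of 308 lay in the left arm (39.6%, 34.3 to 45.2), 0.792 times what equal arms predict (0.682 to 0.906, exact binomial test, adjusted p = 0.00057). In replicate 1 the left arm held 62 of 156 arm peaks, a ratio of 0.795 (exact adjusted p = 0.0144). In replicate 2 it held 33 of 94, a ratio of 0.702 (exact adjusted p = 0.00762). The call depends on where the right arm begins. With the centre set from 5 to 12 Mb the high bin from 11 to 12 Mb joins the centre. The left arm then held 23.2 peaks per Mb, against 27.6 in the right (ratio for the left arm 0.930, exact adjusted p = 0.254).

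The same division of the other autosomes gives a setting for these values. On chromosome II the right arm held 1.52 times as many combined peaks as the left, against 0.829 on I, 1.05 on III, 0.768 on IV and 0.927 on V. In the replicate lists chromosome II had 1.52 (replicate 1) and 1.85 (replicate 2), against 0.679 to 1.04 and 0.805 to 1.22 on the other autosomes. The difference in this ratio between chromosomes was not tested. The share of peaks in the centre was tested: it was 49.8% on chromosome II and 42.2% on the other 4 autosomes (1336 of 3163, 40.5 to 44.0), where all 5 autosomes gave 43.5%. That is an odds ratio of 1.36 for II (1.14 to 1.62, two-sided Fisher's exact test, adjusted p = 0.00243 over 4 tests). Taken singly, the combined centre shares were 40.0% on I, 43.5% on III, 40.0% on IV and 47.1% on V, the nearest to II. In the replicate lists V had 44.3% (replicate 1) and 47.9% (replicate 2), against 51.7% and 51.3% on II. Chromosome II was not tested against V alone. In the replicate 1 list the odds ratio was 1.54 (exact adjusted p = 0.0018), while the 1.35 of the replicate 2 list (exact adjusted p = 0.194) and the 1.24 found with each cluster of peaks counted as 1 (exact adjusted p = 0.188) did not pass.

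**Figure D2:**
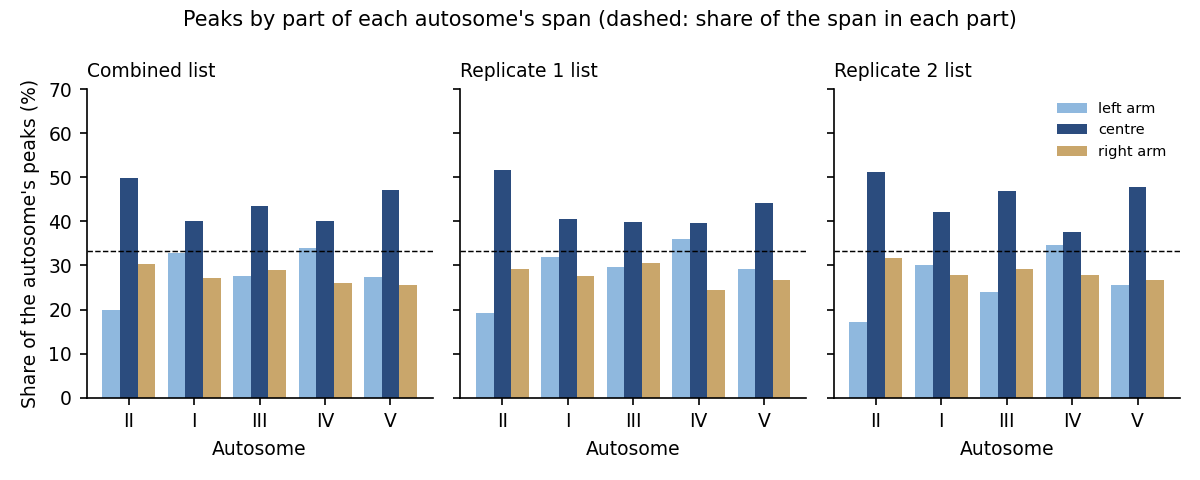
Share of each autosome's peaks in its left arm, centre and right arm, in % of the peaks of that autosome, for the 3 lists, with chromosome II first and the dashed line at the share of the span. With 3 parts of equal span, chromosome II has in each list the lowest share in the left arm (19.9%, 19.2% and 17.1%) and the highest in the centre (49.8%, 51.7% and 51.3%).

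As a whole, chromosome II carried 40.2 combined peaks per Mb, which is 0.855 times the number its share of the genome's span predicts (0.793 to 0.921, exact binomial test, adjusted p = 4.57e-05). This call rests on chromosome I, which is dense in the combined and replicate 1 lists. Without it the ratio was 0.946 (exact adjusted p = 0.151), and in the replicate 2 list 0.937 (exact adjusted p = 0.344). The peaks covered 315 kb, or 2.06% of the span of chromosome II. Cover was 3.04% in the centre, 2.03% in the right arm and 1.12% in the left arm.

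Support by the replicates was then counted for each region. Of the 614 combined peaks, 131 (21.3%, 18.3 to 24.7) overlapped a peak of both replicates, against 18.9% of all combined peaks. A further 184 (30.0%, against 31.0% of all) overlapped replicate 1 only, and 57 (9.28%, against 8.75% of all) replicate 2 only. The remaining 242 (39.4%, 35.6 to 43.3, against 41.4% of all) overlapped neither. The share in both was 21.3% on chromosome II and 18.5% on the other 5 chromosomes (753 of 4074), a difference that did not pass the test (odds ratio 1.20, 0.963 to 1.48, Fisher's exact test, adjusted p = 0.194). Without chromosome I the odds ratio was 1.01. The share in neither did not pass either (odds ratio 0.910, 0.762 to 1.09, exact adjusted p = 0.292).

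Support by both replicates was also set out along the chromosome. It was 23.5% in the centre (72 of 306) and 19.2% in the arms (59 of 308), a difference that did not pass the test (odds ratio 1.30, 0.865 to 1.95, Fisher's exact test, adjusted p = 0.268). The left arm had 19 such peaks of 122 (15.6%, 10.2 to 23.0) and the right arm 40 of 186 (21.5%, 16.2 to 28.0), and these intervals overlap. By bin the share ran from 10.0% between 1 and 2 Mb to 35.7% between 5 and 6 Mb, where 20 of 56 peaks were found in both. With 14 to 76 peaks a bin, single bins are imprecise.

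Seen from the replicates, 130 of 323 replicate 1 peaks (40.2%, 35.0 to 45.7) overlapped a replicate 2 peak, against 36.6% of the whole list. In the other direction 130 of 193 (67.4%, 60.5 to 73.6) did, against 66.7%. The share of replicate 1 peaks with a partner was 30.6% in the left arm (20.6 to 43.0), 42.5% in the centre (35.3 to 50.1) and 42.6% in the right arm (33.0 to 52.6). These intervals overlap, and the difference was not tested. The 130 pairs were closely aligned. Their midpoints lay a median of 43 bp apart (quartiles 20.1 and 111 bp), 95 pairs lay within 100 bp, and in 73 pairs the shorter peak lay wholly inside the longer. The replicate 1 peak was the wider in 93 of the 130, with a median of 463 bp against 388 bp in replicate 2. In bases, 55.1 kb were covered in both lists, which is 34.2% of the 161 kb of replicate 1 and 55.8% of the 98.8 kb of replicate 2.

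The q values of the paired peaks were only weakly ranked alike. Spearman's rho of −log10 q over the 130 pairs was 0.19 and Pearson's r was 0.30. Peaks are not independent samples and the lists hold only values below 0.01, so these are descriptions without a test. Paired replicate 1 peaks had a median q of 0.000245, and unpaired ones 0.00295. In replicate 2 the medians were 0.00088 and 0.00422.

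**Figure D3:**
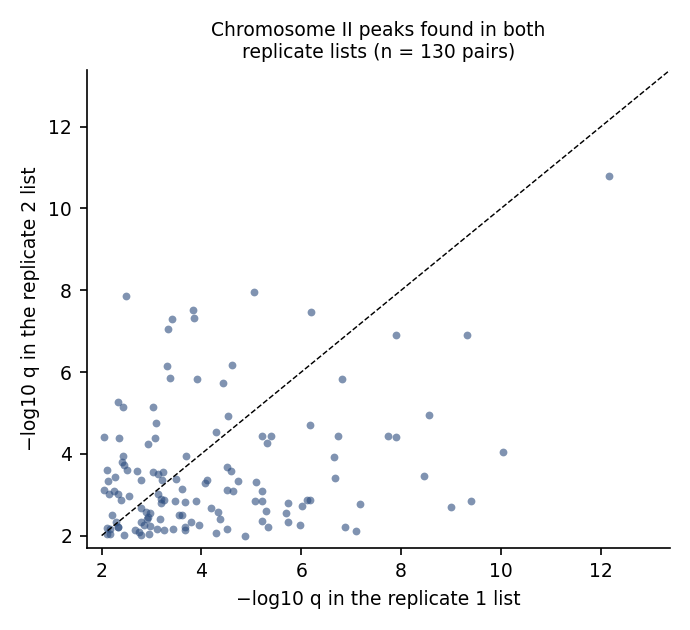
Values of −log10 q in the replicate 1 list (horizontal axis) and the replicate 2 list (vertical axis) for the 130 overlapping pairs on chromosome II, with the line of equal values dashed. Points scatter on both sides of the line but not evenly, with the lower q in replicate 1 for 85 of the 130 pairs. The median −log10 q is 3.61 in replicate 1 and 3.06 in replicate 2. A single pair is apart at the upper right, at 12.2 and 10.8.

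Replicate support followed the q of the combined list. The lists are not independent of each other, since the combined list may hold the reads of both replicates, and this order is given as a description. Among the 154 chromosome II peaks with lowest q (up to 1.27e-05), 113 (73.4%) were found in both replicates and 0 in neither. Among the next 153 the share in both was 9.8%, and among the 153 after those 1.96%. Of the 154 with highest q (from 0.00277), 0 were found in both and 129 (83.8%) in neither. The median q was 5.2e-08 for peaks in both, 0.000217 for replicate 1 only, 0.000201 for replicate 2 only and 0.00319 for neither. Over all chromosomes these medians were 1.87e-08, 0.000127, 0.000132 and 0.00311, again lowest in both and highest in neither. Shares by group of q are given for chromosome II only, so they are not shown to be particular to it.

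**Figure D4:**
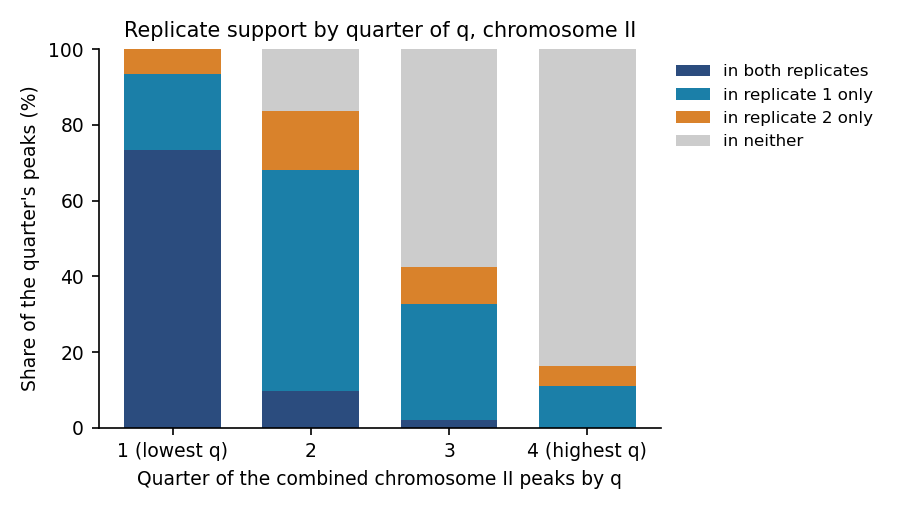
Share of combined chromosome II peaks by replicate support, in % of each group of 153 or 154 peaks ordered from lowest to highest q. The share in both replicates is 73.4% in the first group and 0% in the last, and the share in neither is 0% and 83.8%.

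Regions of chromosome II were mostly narrow. The median width of combined peaks was 391.5 bp, with quartiles of 281.5 and 560.75 bp, a minimum of 13 bp and a maximum of 9983 bp. Replicate 1 peaks had a median of 416 bp and replicate 2 peaks 378 bp. On the other chromosomes the combined medians lay between 365.5 bp on III and 410 bp on X, so that of II lay within their range. Median widths by part were 376 bp in the centre, 403 bp in the right arm and 407 bp in the left arm, while the quartiles of the 3 parts overlapped widely.

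Width went with replicate support. The 131 peaks in both replicates had a median of 538 bp and none under 264 bp. Those in replicate 1 only and replicate 2 only had medians of 421 and 416 bp. Those in neither had a median of 288.5 bp, and they included 22 of the 25 peaks under 100 bp. At the other end, 49 peaks were over 1000 bp wide (7.98%, against 4.78% to 8.05% on the other chromosomes). They made up 28.5% of the bases covered. Of these, 23 were found in both replicates and 6 in neither. Over all chromosomes the median widths were 540.5 bp in both, 404 bp in replicate 1 only, 418 bp in replicate 2 only and 303 bp in neither. Width on chromosome II also went with q, with medians of 516, 417, 359 and 280 bp in the 4 groups from lowest to highest q. How far width, q and the 1 bp rule each bear on replicate support was not tested.

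The broadest region of the whole combined list was on chromosome II. It ran from 10544367 to 10554349, 9983 bp, with q = 4.09e-14. Replicate 1 called 4279 bp of it (10548643 to 10552921, q = 0.000331) and replicate 2 called 2999 bp (10551303 to 10554301, q = 0.000422). No replicate peak covered it left of 10548643. By q it ranked 8th on chromosome II in the combined list, 96th in replicate 1 and 64th in replicate 2.

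The second broadest, from 8743018 to 8748355 (5338 bp), was found in replicate 2 alone. There it was the chromosome II peak of lowest q (3.04e-14, 3865 bp, 10th of the whole list), and it had no overlapping peak in replicate 1. In the combined list its q was 2.2e-08. The third, from 6826434 to 6830411 (3978 bp, q = 1.07e-09), had q = 2.08e-07 in replicate 1 and 0.00038 in replicate 2. The fourth, from 9059897 to 9062594 (2698 bp), had a higher q of 0.000921, and q = 0.00308 in replicate 1 and 0.000243 in replicate 2. The fifth, from 6346481 to 6349069 (2589 bp, q = 2.56e-07), overlapped no replicate 1 peak and 2 peaks of replicate 2, the only chromosome II region that held more than 1 peak of a replicate.

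The 10 regions of lowest q found in both replicates lay between positions 5593369 and 14040838, with 7 in the centre, 3 in the right arm and 0 in the left arm. Of all 131 peaks found in both, 72 lay in the centre, 40 in the right arm and 19 in the left arm. The lowest q in the left arm was 4.1e-13, at a peak found in both, against 1.93e-13 for the tenth region. The 10 regions were chosen by their combined q, so the values below describe them. The first, from 7850392 to 7850944, had q = 2.28e-25 and ranked 17th in the whole combined list. It was the lowest of chromosome II in replicate 1 (q = 6.85e-13) and the second lowest in replicate 2 (q = 1.65e-11). The 3 calls of this site nearly coincide, with widths of 553, 515 and 490 bp. It lay in the fullest bin, between 7 and 8 Mb.

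The second was far out on the right arm, from 14039847 to 14040838 (q = 1.3e-18), with q = 4.87e-10 in replicate 1 and 1.25e-07 in replicate 2. The third, from 8561158 to 8561585 (q = 1.5e-17), had 1.28e-08 in replicate 1 and 1.25e-07 in replicate 2. These 2 sites held similar places in both replicates, 5th and 10th on chromosome II in replicate 1 and 11th and 12th in replicate 2. The fourth, from 6641952 to 6642984 (q = 3.59e-17), ranked higher in replicate 2 (1.11e-08, 4th) than in replicate 1 (8.91e-06, 46th). The sixth, from 5660464 to 5662724 (q = 1.23e-14), had 6.54e-07 in replicate 1 and 3.39e-08 in replicate 2.

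Another 4 ranked higher in replicate 1 than in replicate 2. The fifth, from 12378651 to 12379149 (q = 1.47e-16), was the 3rd of replicate 1 (9.25e-11) but the 45th of replicate 2 (8.94e-05). The seventh, from 7211283 to 7211680 (q = 2.5e-14), was the 4th of replicate 1 (4.05e-10) but the 96th of replicate 2 (0.00145). The ninth, from 5593369 to 5593930 (q = 8.28e-14), had 3.41e-09 in replicate 1 and 0.000344 in replicate 2. The tenth, from 8961498 to 8962697 (q = 1.93e-13), had 2.75e-09 in replicate 1 and 1.1e-05 in replicate 2. The eighth is the broadest region described above.

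Low q did not always mean support by both replicates. The peak from 13872012 to 13872904 had the 11th lowest q of chromosome II (3.38e-13) and the second lowest in replicate 1 (1.44e-11), with no partner in replicate 2. The peak from 14405959 to 14408168 was the third lowest of replicate 2 (4.03e-10) with no partner in replicate 1, and had q = 1.39e-06 in the combined list. Both were picked after their values were seen. Among peaks found in neither replicate, the lowest q values were 2.99e-05 (10868659 to 10869406), 3.59e-05 (6992839 to 6993281) and 4.34e-05 (6482825 to 6483095).

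Spacing between neighbouring peaks was described as well. Neighbouring midpoints of the combined list lay a median of 10483 bp apart, while the mean distance was 24890 bp. Both values take in the broad hill along the chromosome, and no comparison with peaks placed at random was made. The median distance was 7497 bp in the centre, 13200 bp in the right arm and 17542 bp in the left arm. Of the 613 distances, 31 were at most 1000 bp and 30 were over 100 kb. A neighbour within 5000 bp was present for 324 of the 614 peaks (52.8%, 48.8 to 56.7), against 55.8% of all combined peaks. This share was 57.2% in the centre (51.6 to 62.6), 47.3% in the right arm (40.3 to 54.5) and 50.0% in the left arm (41.3 to 58.7). The intervals of the 3 parts overlap, although their densities differ. In the sparser replicate lists the share was 36.8% in replicate 1 and 32.1% in replicate 2.

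**Figure D5:**
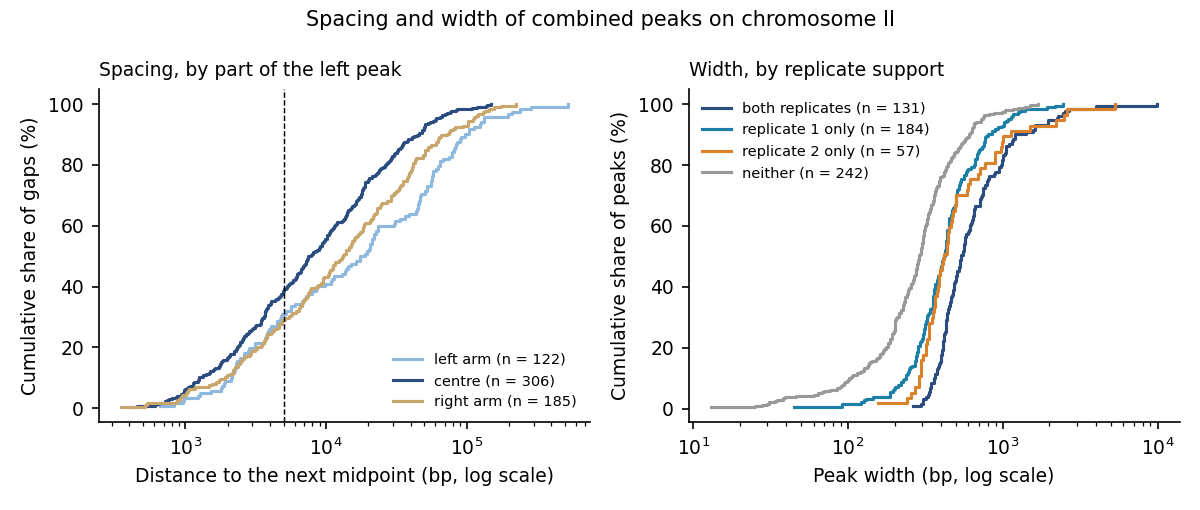
Left, cumulative share of distances between neighbouring midpoints (bp, log scale) by part of chromosome II, with 5000 bp dashed. Right, cumulative share of peak widths (bp, log scale) by replicate support. Distances are shortest in the centre (median 7497 bp), and peaks in both replicates are the widest (median 538 bp) and those in neither the narrowest (288.5 bp).

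Joining peaks whose midpoints lay at most 5000 bp apart gave 404 units, of which 290 were single peaks and 114 were runs of 2 or more. Runs of 5 or more numbered 9 and held 52 peaks, and 7 of the 9 lay in the centre, 2 in the right arm and 0 in the left arm. Peaks were also densest in the centre, at 60.2 per Mb against 36.6 in the right arm and 24.0 in the left. A fixed distance joins more peaks where they are dense, and whether the runs go beyond density was not tested. The peaks in runs of 2 or more were found in both replicates in 24.7% of cases (80 of 324, 20.3 to 29.7) and the single peaks in 17.6% (51 of 290, 13.6 to 22.4). These intervals overlap, and the difference was not tested. The peaks in runs were also wider (median 418 against 365 bp) and lower in q (median 0.000328 against 0.000574).

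The longest run held 10 peaks within 22.0 kb, from 6819471 to 6841478, and 12601 bp of it were covered. Every one of its peaks was found in replicate 1 and 4 also in replicate 2, the lowest q being 1.66e-11 at 6841003 to 6841478. The third broadest region lay within it. Next came 2 runs of 6 peaks. The run from 7648560 to 7656154 covered only 1950 bp in 6 narrow peaks of 28 to 435 bp, with a lowest q of 4.35e-09. Another run of 5 lay just left of it, from 7635143 to 7643803. The nearest midpoints of this run of 6 and this run of 5 lay 5286 bp apart. A slightly larger distance than 5000 bp would join them into a run of more than 10 peaks, so the order of runs depends on that distance. The run from 8953694 to 8962697 ended in the tenth region above. It also held the peak from 8959116 to 8960165, which overlapped a peak of each replicate although these 2 lay 39 bp apart and did not touch. That peak and the run of 5 were picked after their values were seen.

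The closest neighbours were found in 1 replicate or in neither. The 5 closest pairs of midpoints were 348.5 to 535 bp apart, with 211 to 262 bp between the peaks. The closest, at 11000365 to 11000398 and 11000610 to 11000850, had q = 0.00322 and 0.000419. The next were at 8954325 to 8954643 and 8954867 to 8954980, and at 6142454 to 6142588 and 6142809 to 6143144. The other 2 pairs lay at 11079110 to 11079878 and at 11899420 to 11900227, so 3 of the 5 fell in the high bin from 11 to 12 Mb. The lowest q among these 10 peaks was 4.96e-07, at 11899420 to 11899770, in the pair farthest apart. No neighbours on chromosome II had fewer than 211 bp between them.

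The longest empty stretches lay in the left arm. No combined peak was called between 1820240 and 2342081 (522 kb), between 1532053 and 1819941 (288 kb) or between 3077307 and 3315087 (238 kb). The first 2 are separated by 1 peak, from 1819941 to 1820240, with q = 0.00374 and support from replicate 1 only. Together they make 810 kb with that 1 peak. The replicate lists held their longest empty stretches at the same place, 619 kb in replicate 1 (1820231 to 2438858) and 1063 kb in replicate 2 (1376019 to 2439215). Of the 30 distances over 100 kb, 12 began in the left arm, 13 in the right arm and 5 in the centre. The longest distance between midpoints was 522 kb on chromosome II, 533 kb on V and between 201 and 237 kb on the other 4 chromosomes. How much of these stretches reads can be mapped to was not measured, so a stretch without peaks does not show that EGL-5 is absent from it.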

How the data were processed

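Per the file headers and source field, the authors deposited 3 peak lists in GFF3 on WormBase WS190, made with PeakSeq, which scores ChIP reads against input. Each peak has a start, an end and a q-value, as deposited by the authors, and none exceeds 0.01. The aligner, the caller's version, the inputs used and how the combined list was made: not given in the sources used here. All peaks were kept. From these, densities, widths, spacing and overlaps were computed with Python 3.11.15, NumPy 2.4.6, pandas 2.3.3 and SciPy 1.17.1, and p-values were adjusted by the Benjamini-Hochberg method with statsmodels 0.14.6, over 9 binomial and 4 Fisher's tests. The scripts were tested on simulated data. Shares carry 95% Wilson intervals and ratios exact ones, which cover counting error only. The members, lists and tests were chosen with earlier results of these data known. The named regions are the 10 of lowest q found in both replicates, the 5 widest, the 3 largest runs, the 3 longest gaps, the 3 of lowest q found in neither, the fullest and emptiest bins and the 5 closest pairs. Others are said to have been picked afterwards. Alternatives were other centres, overlaps, distances, bins and lists. No sequence was read, since no genome of WS190 was used.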

Additional observations from a re-analysis of the deposited data

How the results depend on the processing

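Of 57 values under other settings, 0 reversed, 39 kept their side of the threshold or their interval, 6 lost a call and 12 values without a test moved. Concentration in the centre passed under all alternatives run, from 1.37 to 1.65 times expectation. The ratio for the left arm fell to 0.930 with the centre from 5 to 12 Mb and no longer passed. The density of II no longer passed among peaks found in both replicates (0.968), without chromosome I (0.946) or in the replicate 2 list (0.937). In the replicate 1 list it was 0.872 and passed. The odds of a central position against other autosomes no longer passed with runs counted as 1 (1.24) or in the replicate 2 list (1.35). In the replicate 1 list these odds were 1.54 and passed. Added after seeing the data were runs counted as 1, the alternatives to that last comparison and to the share in neither replicate against other chromosomes, and the neighbour share among peaks in both replicates. With midpoints within 200 bp, 17.4% of II peaks were found in both replicates, and 59.1% of replicate 2 peaks had a partner. Under that rule the odds ratio for both, II against the other chromosomes, was 1.11 (Fisher's exact test, adjusted p = 0.379). Of the 301 II peaks among the 50% of all peaks with lowest q, 42.5% were in both and 7.97% in neither. Peaks with a neighbour made up 22.8% at 2000 bp, 69.4% at 10000 bp, 28.2% among peaks in both replicates and 32.1% to 36.8% in the single replicate lists. For the 50% with lowest q and for these neighbour shares, no share over all chromosomes is given. They are therefore not shown to be particular to II. Median width was 461 bp for the 50% of II peaks with lowest q and 538 bp for peaks in both. The fullest bin of 0.5 Mb reached 108 peaks per Mb. No cause of these changes was tested, including the smaller number of peaks in the shorter lists. Read depth, which limits which peaks are called, is unknown. No paired analysis was possible because the lists pool the libraries of a replicate and all inputs belong to replicate 2.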
